A study of Mus musculus with 9 samples.

Results

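The peptidylarginine deiminase genes *Padi1*, *Padi2*, *Padi3* and *Padi4* were followed across the 9 RNA-seq samples of FVB MOE cells. These 4 genes, among the 23332 gene rows of each sample, were found by their symbols and had been chosen by their measured response to E2 and 4OHT in these same samples. Differences between conditions are therefore given for them as a description with no test. Only *Padi1* and *Padi2* passed the filter on low values, an FPKM of 1 or more in 3 or more samples, and entered the fit across 11339 genes. *Padi3* and *Padi4* stayed below this limit in every sample.

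FVB MOE cells are a monoclonal line of mouse oviductal epithelium from the FVB strain, described as secretory. All 9 samples were kept for 48 h in phenol red free medium with charcoal-stripped serum and then received one treatment for 24 h, with 3 samples per condition. The DMSO samples received the solvent at 0.1%, the E2 samples 1 nM 17-beta-estradiol and the 4OHT samples 100 nM 4-hydroxytamoxifen, the active metabolite of tamoxifen. A line from 1 clone limits these results to that clone, and the sources give the treatments as made in triplicate without saying, for these libraries, whether that means separate experiments, so the spread between samples may be technical. Expression is given as FPKM, a level corrected for transcript length and library size, which can be compared between genes of different length.

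Peptidylarginine deiminases are calcium-dependent enzymes that convert arginine residues of proteins into citrulline, which removes a positive charge. PADI1 and PADI3 are best known from the epidermis and hair follicle, where they act on keratins, filaggrin and trichohyalin. PADI2 is widely expressed, including in mammary and uterine epithelium, and PADI4 is known from neutrophils, where it citrullinates histones. *Padi6*, the remaining gene of the family, is known from the oocyte.

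The 5 family genes lie side by side on mouse chromosome 4, between 140727355 and 140952586 in GRCm38, the assembly that mm10 names. *Padi6*, *Padi4*, *Padi3* and *Padi1* are transcribed from the minus strand in that order, and *Padi2* is transcribed from the plus strand. *Padi1* and *Padi2* therefore start back to back, with 60557 bases between their annotated starts. Only 1 annotated gene of any kind lies in this gap, the lincRNA 4930515B02Rik, and it was listed at 0 in every sample. Each of the 5 genes has 16 exons, and the coding lengths range from 1986 bases in *Padi1* to 2046 bases in *Padi6*.

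The promoters of the 4 genes are shown as the sequence next to their starts. Each is the RefSeq window in GRCm38.p6 from 250 bases before to 50 bases after the start, read in the direction of the gene, at chr4:140845729-140846028 for *Padi1*, chr4:140906110-140906409 for *Padi2*, chr4:140810599-140810898 for *Padi3* and chr4:140774154-140774453 for *Padi4*. The gene spans behind the gap given above start *Padi2* at 140906336 and *Padi4* at 140774239. The windows of these genes use other start bases, and match positions count from the start that each window uses. Capitals mark every match, on either strand, to one of the searched motifs.
Padi1: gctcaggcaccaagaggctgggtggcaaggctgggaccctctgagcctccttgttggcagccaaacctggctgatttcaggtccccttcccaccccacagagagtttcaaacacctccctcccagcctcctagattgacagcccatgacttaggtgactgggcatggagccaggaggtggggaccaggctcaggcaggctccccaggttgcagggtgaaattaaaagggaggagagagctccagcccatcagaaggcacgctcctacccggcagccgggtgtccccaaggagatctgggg
Padi2: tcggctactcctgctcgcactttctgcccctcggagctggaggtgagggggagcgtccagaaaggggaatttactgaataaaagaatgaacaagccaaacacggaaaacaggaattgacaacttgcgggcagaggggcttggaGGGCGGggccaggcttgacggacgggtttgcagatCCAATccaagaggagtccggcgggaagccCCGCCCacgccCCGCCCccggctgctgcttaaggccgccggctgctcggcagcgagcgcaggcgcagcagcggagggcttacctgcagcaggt
Padi3: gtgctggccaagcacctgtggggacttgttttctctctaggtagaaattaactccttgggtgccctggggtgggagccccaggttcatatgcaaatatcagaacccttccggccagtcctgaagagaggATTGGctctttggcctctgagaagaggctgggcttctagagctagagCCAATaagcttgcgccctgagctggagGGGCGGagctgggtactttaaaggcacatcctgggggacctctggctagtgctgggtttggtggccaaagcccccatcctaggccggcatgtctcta
Padi4: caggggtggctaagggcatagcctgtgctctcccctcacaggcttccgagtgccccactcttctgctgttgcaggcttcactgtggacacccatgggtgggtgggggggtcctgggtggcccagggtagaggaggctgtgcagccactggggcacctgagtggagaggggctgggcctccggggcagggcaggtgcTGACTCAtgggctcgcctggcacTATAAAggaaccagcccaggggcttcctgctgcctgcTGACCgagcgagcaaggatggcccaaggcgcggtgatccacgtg

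The searched motifs were the palindromic estrogen response element GGTCANNNTGACC, its half-sites AGGTCA and GGTCA, the AP-1 site TGANTCA, the CCAAT box, the GC box GGGCGG bound by Sp factors, and the TATA box TATAAA. The half-site of 6 letters contains the half-site of 5 letters, and the palindrome contains that shorter half-site on each strand. None of the 4 windows held the palindrome, which was present in 0.07% of the 32851 RefSeq promoters of this length. The *Padi1* window held no match to any of these motifs. The *Padi2* window held 3 GC boxes, at -107, -43 and -32 from the start, and a CCAAT box at -72. *Padi3* had 2 CCAAT boxes, at -121 and -74, and a GC box at -47. In *Padi4* the matches were a TATA box at -31, an AP-1 site at -54 and a GGTCA half-site just past the start, at position 7. Over all promoters, a GC box was found in 35.7%, a CCAAT box in 37.4%, a TATA box in 13.6%, an AP-1 site in 7.81%, GGTCA in 40.5% and AGGTCA in 16.3%. The G and C content was 61.3% in *Padi1*, 63.3% in *Padi2*, 56.7% in *Padi3* and 66.3% in *Padi4*, against a median of 52.7%. A match or its absence in so short a window is a description of the letters and not of binding.

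*Padi1* was the most abundant deiminase transcript in every sample. In DMSO its FPKM was 7.85, 4.41 and 5.56 in replicates 1, 2 and 3, a mean of 5.94 ± 1.75 (SD, n = 3). In 4OHT the values were 13.4, 7.15 and 7.18, a mean of 9.23 ± 3.58 (SD, n = 3), and in E2 they were 41.1, 22.6 and 22.7, a mean of 28.8 ± 10.7 (SD, n = 3). All 3 E2 samples lay above every other sample. The DMSO and 4OHT samples overlapped, since replicate 1 in DMSO was above replicates 2 and 3 in 4OHT. Without regard to replicate number, these neighbouring levels did not differ beyond their spread. Within each replicate number the order was nevertheless DMSO, 4OHT, E2.

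*Padi2* stood at a lower level. Its coefficient of variation within a condition was 16.3% in DMSO, 26.9% in 4OHT and 9.05% in E2, against 29.5%, 38.7% and 37.0% for *Padi1*. Its FPKM was 1.84, 1.39 and 1.41 in DMSO, with a mean of 1.55 ± 0.252 (SD, n = 3). It was 4.04, 2.84 and 2.43 in 4OHT, with a mean of 3.11 ± 0.837 (SD, n = 3), and 8.24, 7.79 and 6.88 in E2, with a mean of 7.64 ± 0.691 (SD, n = 3). No sample of one condition overlapped with another condition, in the order DMSO, 4OHT, E2. Of all genes tested, 5.57% had this order within each of the 3 replicate numbers and 0.485% had it with no overlap of any 2 conditions. Since the order is part of what chose these genes, nothing is read from these shares.

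*Padi3* and *Padi4* were close to undetected in all conditions. *Padi3* had an FPKM of 0.0806, 0.0698 and 0.0626 in DMSO, 0.0541, 0.14 and 0.095 in 4OHT, and 0.209, 0.112 and 0.0757 in E2. *Padi4* had 0.0277, 0.0474 and 0.00891 in DMSO, 0.0306, 0.0115 and 0.0495 in 4OHT, and 0, 0.0196 and 0.0598 in E2. For both genes the 3 conditions overlapped, and no order of all 3 levels can be given. Within replicate numbers *Padi3* was higher in E2 than in DMSO in 3 pairs and than in 4OHT in 1. For *Padi4* the numbers were 1 and 2. The number of reads behind these values was not estimated here, and no difference beyond the spread between samples was detectable, which is not the same as absent. *Padi6* was listed at 0 in all 9 samples. The plot of FPKM by sample shows how far the genes differ in scale.

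**Figure D1:**
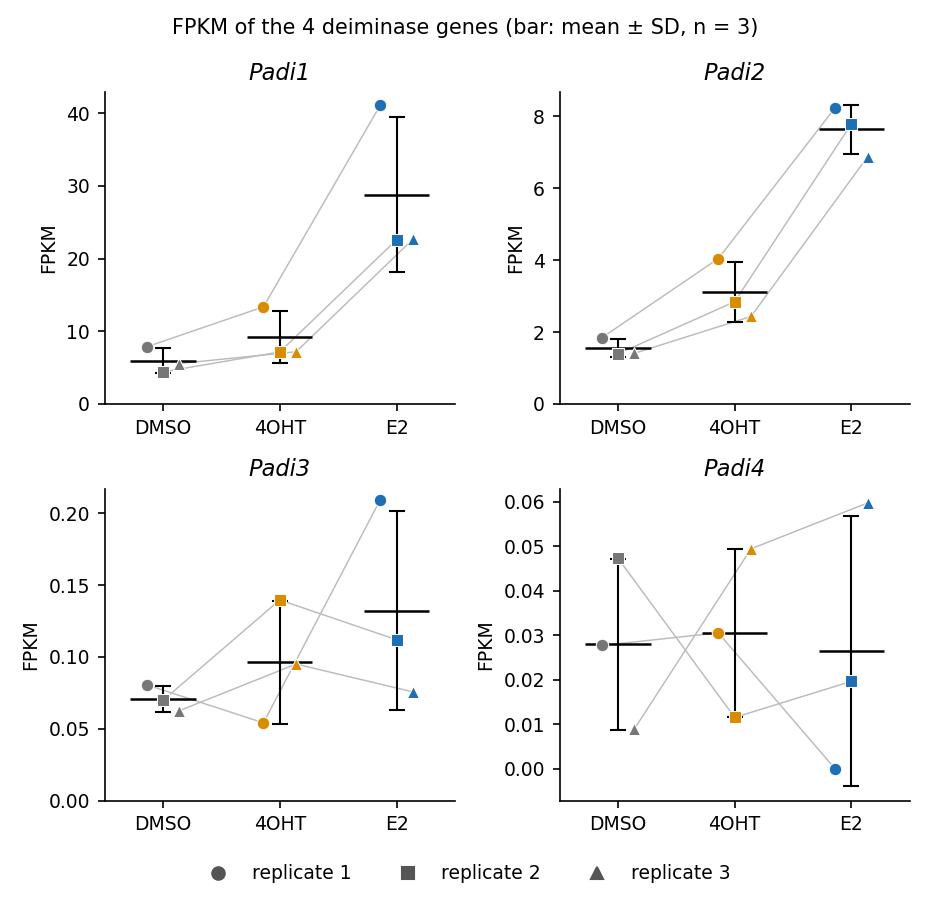
FPKM of *Padi1*, *Padi2*, *Padi3* and *Padi4* in DMSO, 4OHT and E2 (vertical axes, each with its own linear scale), with 1 symbol per replicate number joined by lines and a black bar for the mean ± SD (n = 3). The E2 samples of *Padi1* (22.6 to 41.1) and *Padi2* (6.88 to 8.24) lie above all others, while *Padi3* and *Padi4* stay at or below 0.209 with overlapping conditions.

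The 5 genes are related in sequence, so reads could in principle be shared between them. Their coding sequences were identical at 64.7% to 70.3% of aligned bases, with 68.7% between *Padi1* and *Padi2*. Of the stretches of 50 bases, the length of the reads, none was shared between the annotated coding transcripts of *Padi1* and *Padi2*. The only stretches shared within the family were 14 of the 3705 in *Padi1*, which also occur in *Padi3*. How reads matching both genes were assigned is not given in the sources used here, and their part in the low *Padi3* values was not tested.

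In E2 both expressed genes stood several times above their DMSO level, by similar ratios. Compared within the same replicate number and with nothing added, *Padi1* was 5.23, 5.12 and 4.07 times as high in E2 as in DMSO, and *Padi2* was 4.49, 5.59 and 4.89 times as high. The mean log2 ratio was 2.26 ± 0.2 (SD, n = 3 pairs) for *Padi1* and 2.31 ± 0.16 (SD, n = 3 pairs) for *Padi2*. In the limma fit on log2(FPKM + 1), the log2 fold change was 2.07 ± 0.315 (SE) for *Padi1* and 1.76 ± 0.146 (SE) for *Padi2*. The value of *Padi2* is smaller there because 1 was added to a low FPKM. With the replicate number as a block, which leaves the estimates as they are, the standard errors were 0.0807 and 0.0785. Of all genes tested, 0.494% passed an adjusted p under 0.05 as higher and 0.0176% as lower, and with the block 10.4% and 4.63% (limma). No call is read for the deiminases, since this comparison was used to choose them. The E2 samples lay wholly above the DMSO samples in 9.14% of the genes tested. Over all genes tested the median was -0.0027.

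In 4OHT both genes were above DMSO in each of the 3 pairs, by less than in E2. The 4OHT level of *Padi1* was 1.70, 1.62 and 1.29 times the DMSO level in replicates 1, 2 and 3, and that of *Padi2* was 2.20, 2.04 and 1.73 times. The mean log2 ratio was 0.611 ± 0.213 (SD, n = 3 pairs) for *Padi1* and 0.986 ± 0.178 (SD, n = 3 pairs) for *Padi2*. On the log2(FPKM + 1) scale the fit gave 0.54 ± 0.315 (SE) for *Padi1* and 0.68 ± 0.146 (SE) for *Padi2*. With the block the standard errors were 0.0807 and 0.0785. With 1 DMSO or 4OHT sample left out in turn the *Padi1* value ran from 0.265, without replicate 1 in 4OHT, to 0.727, without replicate 1 in DMSO. Of all genes tested, 0% passed the threshold in either direction, with the block or without it. At an unadjusted p under 0.05, limma counted 313 genes without the block and 1480 with it, and the smallest adjusted p was 0.516 and 0.231. The 4OHT samples lay wholly above the DMSO samples in 4.37% of genes tested, *Padi2* among them and *Padi1* not.

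Set against 4OHT, E2 gave higher levels in all pairs. *Padi1* was 3.07, 3.16 and 3.16 times as high in E2 as in 4OHT, a mean log2 ratio of 1.65 with an SD over the pairs of only 0.0219. *Padi2* was 2.04, 2.74 and 2.83 times as high, with a mean log2 ratio of 1.33 ± 0.261 (SD, n = 3 pairs). In the fit the log2 fold change was 1.54 ± 0.315 (SE) for *Padi1* and 1.09 ± 0.146 (SE) for *Padi2*. Of all genes tested, 0.159% passed the threshold as higher and 0% as lower, and with the block 8.63% and 7.6%. The E2 samples lay wholly above the 4OHT samples in 8.4% of genes tested, and both deiminase genes were among them.

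**Figure D2:**
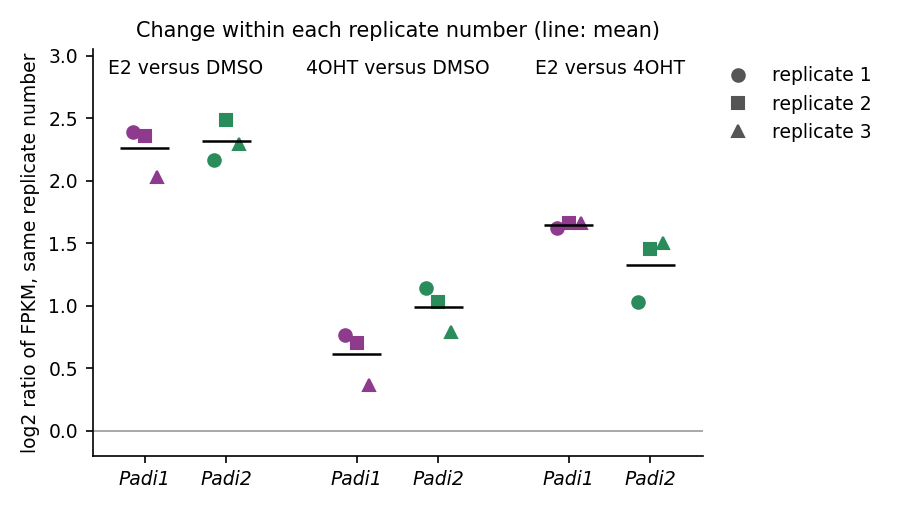
Log2 ratio of FPKM between samples with the same replicate number (vertical axis) for *Padi1* and *Padi2* in the 3 comparisons, with 1 symbol per replicate number and a line at the mean of the 3. All points lie above 0, the 4OHT versus DMSO means are 0.611 and 0.986, and the 3 *Padi1* points for E2 versus 4OHT nearly coincide.

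Within each replicate number the 4OHT level of both genes lay between DMSO and E2, at a larger share of the E2 step for *Padi2*. A partial response to 4OHT is part of what chose these genes, so it is given as a description. The DMSO and 4OHT samples of *Padi1* overlapped. On the log2 scale the step from DMSO to 4OHT was 32.1%, 29.6% and 18.2% of the step from DMSO to E2 for *Padi1*, a mean of 26.6% ± 7.42 (SD, n = 3). For *Padi2* it was 52.6%, 41.4% and 34.5%, a mean of 42.8% ± 9.12 (SD, n = 3). The *Padi2* share was the larger of the pair in each replicate number. As differences of FPKM the shares were 13.7% ± 3.74 (SD, n = 3) and 25.3% ± 8.19 (SD, n = 3). Both steps share the DMSO sample, so an unusual DMSO value moves numerator and denominator together.

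The ratio of *Padi1* to *Padi2* within a sample shows the same difference in another form. It was 4.28, 3.16 and 3.95 in DMSO, 4.99, 2.90 and 3.29 in E2, and 3.31, 2.52 and 2.95 in 4OHT. The 4OHT sample had the lowest ratio within every replicate number. The log2 of this ratio in 4OHT minus that in DMSO was -0.37 on average, with an SD over the 3 pairs of 0.0454. Set against E2 in place of DMSO, it was -0.32 ± 0.239 (SD, n = 3 pairs), below 0 in all 3 pairs. The same difference for E2 was -0.056 ± 0.25 (SD, n = 3 pairs), above 0 in 1 pair and below it in 2.

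Replicate 1 stood apart for *Padi1* in every condition. Its *Padi1* FPKM was the highest of the 3 samples in DMSO, in 4OHT and in E2, and so was its *Padi2* FPKM. The same samples also held the most *Esr1*, the gene of estrogen receptor alpha, with 12.4, 11.2 and 16.3 FPKM in DMSO, 4OHT and E2, against 5.25 to 9.32 in replicates 2 and 3. *Pgr*, the progesterone receptor gene, and *Greb1*, both known estrogen targets, followed the same division. In DMSO *Pgr* was 9.58 in replicate 1 and 1.36 and 1.16 in the others, and *Greb1* was 14.3 in replicate 1 and 2.58 and 2.30 in the others. The part of this difference in the *Padi1* values was not tested. Without replicate 1 of all 3 conditions, an alternative chosen after the data were seen, *Padi1* had a log2 fold change of 1.99 in E2 and 0.46 in 4OHT, and *Padi2* had 1.79 and 0.60.

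The estrogen response itself was present in each replicate number. *Pgr* was 3.98, 15.6 and 13.8 times as high in E2 as in DMSO, and *Greb1* 2.40, 7.91 and 6.20 times. With 4OHT *Pgr* was 1.01, 2.71 and 2.07 times the DMSO level and *Greb1* 0.925, 1.45 and 1.40 times. Replicate 1 thus showed almost no change of these genes with 4OHT, while its *Padi1* and *Padi2* ratios with 4OHT were the highest of the 3 pairs. Neither gene passed the threshold without the block, with adjusted p of 0.212 for *Pgr* and 0.357 for *Greb1* in E2 versus DMSO (limma). With the block the adjusted p was 0.00253 and 0.00525. *Esr2*, the gene of estrogen receptor beta, had an FPKM of at most 0.13 in all samples, and *Gper1*, the membrane estrogen receptor gene, had no row under that symbol.

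Within the 56 genes past the threshold as higher in E2 versus DMSO, both deiminases ranked near the top for their 4OHT value. Their responses to E2 and to 4OHT had both chosen them, so nothing is read from these ranks. *Padi1* stayed past the threshold in 1 of 9 fits that left out 1 sample, *Padi2* in 9. These numbers describe only how far their place among the 56 depends on single samples. No call is read from them, since E2 versus DMSO was used to choose both genes. *Csf2*, the gene of the cytokine GM-CSF, came first with a log2 fold change of 0.83 on the log2(FPKM + 1) scale, *Padi2* was second with 0.68 and *Padi1* the third with 0.54. *Bnc1*, a zinc finger factor of basal epithelium, had 0.44 and *Slco4a1*, an organic anion transporter, 0.40. The median of the 56 was 0.12 with 4OHT and 0.72 with E2. By their E2 value *Padi1* ranked 2 and *Padi2* ranked 4 among the 56. Over all 11339 genes tested, *Padi2* ranked 87 and *Padi1* 98 for the 4OHT value, and 54 and 41 for the E2 value.

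**Figure D3:**
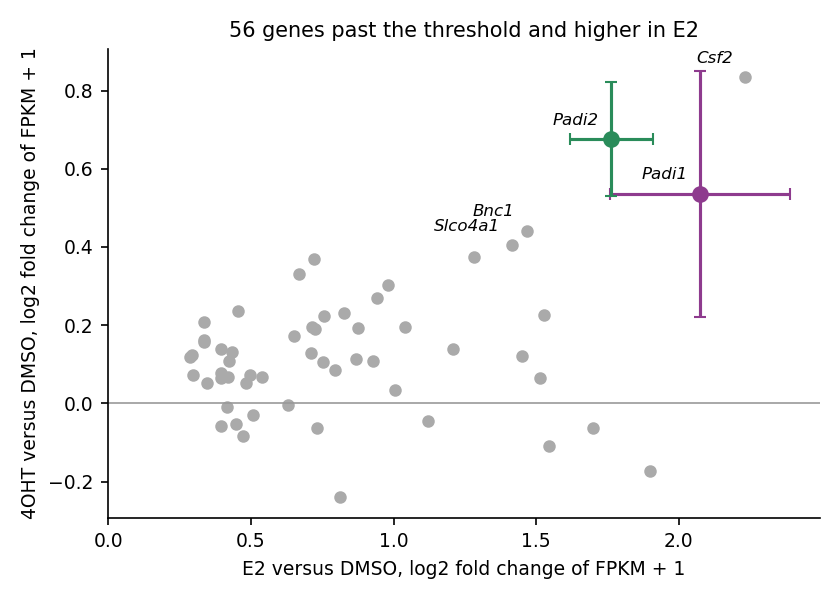
Log2 fold change of FPKM + 1 with E2 (horizontal axis) and with 4OHT (vertical axis), both against the same DMSO samples, for the 56 genes past the threshold and higher in E2. Bars on *Padi1* and *Padi2* are standard errors of the fit. *Csf2* (0.83), *Padi2* (0.68) and *Padi1* (0.54) have the highest 4OHT values, and the bar of *Padi1* reaches down past *Bnc1*.

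The genes whose levels ran most closely with the deiminases over the 9 samples were found by Pearson's r of log2(FPKM + 1), a description without a test, since samples share conditions and replicate numbers. For *Padi2* they were *Csf2* with r = 0.993, *Cd47*, a surface ligand, with 0.990, *Ghr*, the growth hormone receptor, with 0.982, *Bnc1* with 0.977, *Pcyt1a*, an enzyme of phosphatidylcholine synthesis, with 0.970, *Esyt1*, a membrane tether, with 0.969, and *5430407P10Rik* and the potassium channel gene *Kcnf1* with 0.968 each. *Padi1* came next, with 0.964. *Csf2* had the same order of mean levels as *Padi2*, with an FPKM of 0.718 in DMSO, 2.11 in 4OHT and 7.03 in E2, each below that of *Padi2*.

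For *Padi1* the most similar genes were *Bmp6*, a bone morphogenetic protein, with r = 0.995, *Ctns*, the lysosomal cystine transporter, with 0.992, *Esyt1* with 0.989, *Capn5*, a calpain protease, with 0.986, and *Shpk*, *Mlec*, *Icosl* and *Krtap1-5* with 0.984 each. *Padi2* ranked 32 for *Padi1*. *Esyt1* was the gene found in both groups. Their fold changes varied widely, from 0.25 for *Mlec* to 2.23 for *Csf2* with E2 on the log2(FPKM + 1) scale. After the mean of each replicate number was subtracted, r between *Padi1* and *Padi2* was 0.986, against 0.964 before.

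Around the cluster, the nearest protein-coding genes had small differences between conditions. *Rcc2*, a regulator of mitosis 4134 bases before *Padi6*, had a mean FPKM of 68.5 in DMSO, 69.4 in 4OHT and 53.8 in E2. *Sdhb*, a subunit of succinate dehydrogenase 8684 bases past *Padi2*, had 104, 117 and 110.05, and *Atp13a2*, a lysosomal pump beyond it, 10.2, 10.3 and 10.3. *Arhgef10l* had 3.21, 3.34 and 2.54, while *Igsf21* and *Mfap2* were below 0.1 on average in every condition. Of the 12 nearest genes, 6 on each side, 5 were expressed highly enough to test and 0 passed the threshold in any comparison (limma). Their median log2 value was 0.016 in E2 and 0.038 in 4OHT, each against DMSO. With the replicate block *Rcc2* passed as lower in E2 than in DMSO, with a log2 fold change of -0.33 and an adjusted p of 0.00798 (limma). It also passed as lower in E2 than in 4OHT. Of all genes tested, 4.63% and 7.6% passed as lower in these comparisons with the block.

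**Figure D4:**
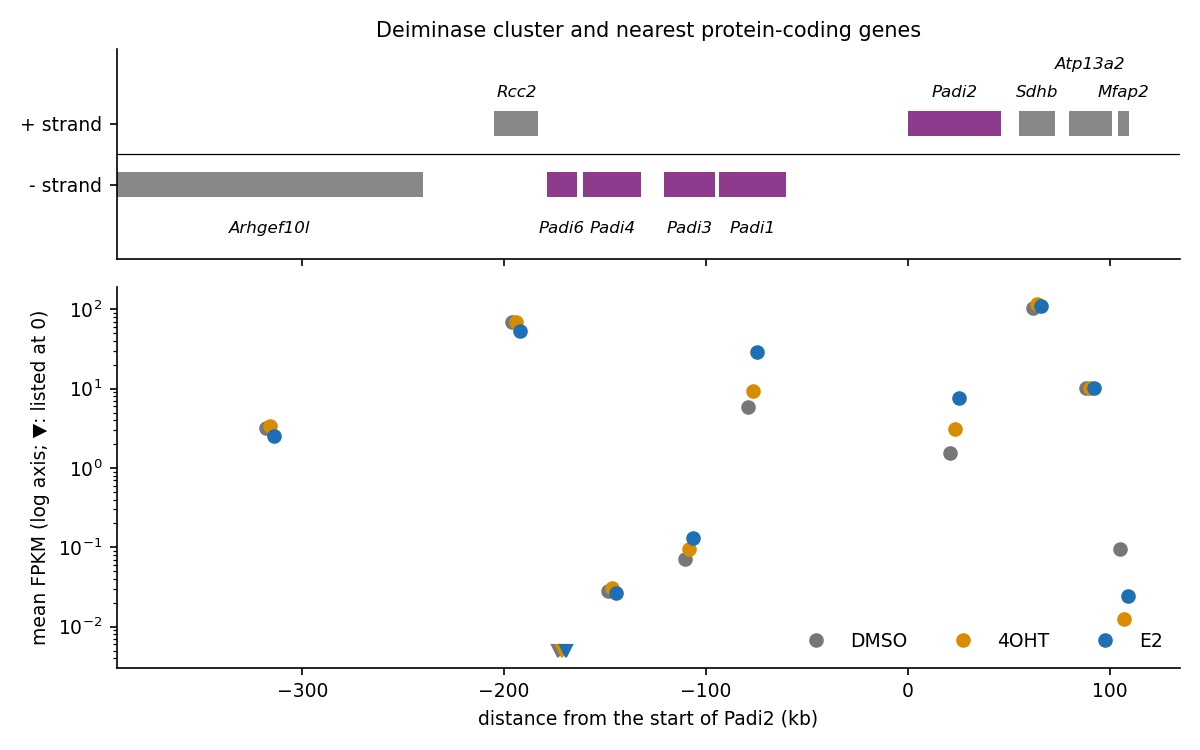
Top, the 5 deiminase genes (purple) and neighbouring protein-coding genes (grey) by strand. Bottom, mean FPKM in DMSO, 4OHT and E2 on a log axis (n = 3 samples each), placed at the middle of each gene by distance from the start of *Padi2* in kb, with triangles for *Padi6*, listed at 0. The 3 means differ at *Padi1* (5.94, 9.23 and 28.8) and *Padi2* (1.55, 3.11 and 7.64) and nearly coincide at *Sdhb* and *Atp13a2*. Single samples are not shown, and those of *Padi1* in DMSO and 4OHT overlapped. The E2 mean is the lowest at *Rcc2* (68.5, 69.4 and 53.8) and *Arhgef10l* (3.21, 3.34 and 2.54). At *Mfap2* (0.0951, 0.0124 and 0.0244) the means differ at very low values.

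Noncoding transcripts annotated on the opposite strand of *Padi1* and *Padi2* moved with them, an observation made after the values were seen. *Gm13031*, at chr4:140947666-140957902, overlaps the far end of *Padi2* in antisense. Its FPKM was 0.18, 0.0663 and 0.196 in DMSO, 0.486, 0.254 and 0.298 in 4OHT and 0.828, 0.934 and 0.495 in E2, with no overlap between conditions. *Gm13032*, at chr4:140810993-140817511, overlaps the far end of *Padi1* in antisense, with 0.0398, 0.0229 and 0.0259 in DMSO, 0.194, 0.116 and 0.085 in 4OHT and 0.41, 0.185 and 0.276 in E2. For this gene the 4OHT and E2 samples overlapped. All these values were below 1 FPKM. The libraries were directional, but the sources used here do not say whether the counting used strand, and without it reads of a gene and its antisense partner cannot be told apart.

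The other tested enzymes that act on arginine residues or methylated arginine had smaller log2 fold changes than *Padi1* and *Padi2*. Those 2 genes were chosen by their response, so nothing is read from this contrast. *Ddah1* and *Ddah2*, hydrolases of free methylated arginine with a related fold, had log2 fold changes of -0.11 and 0.0069 with E2 and of 0.042 and 0.025 with 4OHT. Of the 8 protein arginine methyltransferase genes tested, which modify the same kind of residue, 0 passed the threshold (limma). Of all genes tested, 4.63% passed with the replicate block as lower in E2 than in DMSO and 7.6% as lower than in 4OHT. In this list, with the block, 4 passed as lower in E2 than in DMSO and 4 as lower than in 4OHT. In E2 versus DMSO they were *Prmt1* with -0.23, *Carm1* with -0.17, *Prmt7* with -0.17 and *Prmt3* with -0.14, named after their values were seen. *Prmt1*, the most abundant, had a mean FPKM of 161.0 ± 23.3 in DMSO and 136.0 ± 8.48 in E2 (SD, n = 3). The median of the list was -0.15 with E2 and 0.045 with 4OHT. *Prmt2* had a log2 fold change of -0.25 with E2 that did not pass. *Prmt8* was not expressed highly enough to test, and *Prmt9*, whose older symbol is *Prmt10*, was measured under the latter.

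Of the enzymes that handle free arginine and citrulline, 3 of 9 could be tested. *Ass1*, argininosuccinate synthase, which uses free citrulline, was the gene of this list that passed as higher in E2 than in DMSO, with a log2 fold change of 0.72 and an adjusted p of 0.0444 (limma). Its mean FPKM was 188 in DMSO, 215 in 4OHT and 311 in E2. This call was lost in all 9 fits that left out 1 sample, where the adjusted p lay between 0.0665 and 0.17. With the replicate block *Ass1* passed against both DMSO and 4OHT. Of all genes tested, 10.4% and 8.63% passed as higher in E2 in these comparisons with the block. Without the block 0.494% passed as higher in E2 than in DMSO. *Arg2*, the mitochondrial arginase, passed with the block only, with a log2 fold change of 0.78 from a mean of 1.05 to 2.41 FPKM. *Asl*, argininosuccinate lyase, had -0.053. The nitric oxide synthases *Nos1*, *Nos2* and *Nos3*, which also make citrulline, were below the limit, as were *Otc*, *Arg1* and *Cps1*.

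Of 20 genes for proteins known to be citrullinated, 16 had a row of their own and 11 rows were tested. None passed the threshold in a comparison without the block (limma). The abundant targets *Rps2*, a ribosomal protein, and *Actb*, actin, had log2 fold changes with E2 of -0.04 and 0.11, and *Vim*, vimentin, had 0.041 at a mean of 1731 FPKM in DMSO. With the block *Gsk3b*, a kinase, passed as higher in E2 than in DMSO with 0.28 and than in 4OHT with 0.37. *Eno1*, a glycolytic enzyme, and *Npm1*, nucleophosmin, passed with the block as lower in E2 than in 4OHT, with -0.23 and -0.24. Of all genes tested with the block, 10.4% passed as higher in E2 than in DMSO. Against 4OHT, 8.63% passed as higher in E2 and 7.6% as lower. Of the epidermal targets known for PADI1 and PADI3, *Krt1* and *Tchh* were under 0.04 FPKM on average in every condition. *Krt10* was expressed, with 3.16 to 3.75 FPKM in its tested row and 0.41 to 0.729 in another row. *Fn1* had the largest value of the list, 3.48, but it was listed at 0 in 5 of 9 samples, and *Ep300* was listed at 0 in 1 sample. These are genes with high FPKM in the other samples, and their fold changes rest on the zeros.

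Among 15 genes for calcium supply and removal, on which the enzymes depend, 14 were tested and 0 passed (limma). Their median value was 0.047 in E2 and -0.0068 in 4OHT on the log2 scale. With the block 3 passed as higher in E2 than in DMSO, namely the channel genes *Itpr1* with 0.28 and *Orai2* with 0.17 and the calcium sensor gene *Stim2* with 0.23. Of these *Itpr1* also passed as higher in E2 than in 4OHT, with 0.40. Of all genes tested with the block, 10.4% passed as higher in E2 than in DMSO and 8.63% as higher than in 4OHT. The calmodulin gene *Calm2* and the pump gene *Atp2a2*, the most abundant, had 0.064 and 0.054.

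Of 9 genes for factors known to act on deiminase promoters, 8 were tested and 1 passed. *Fos*, the AP-1 subunit, was higher in E2 than in DMSO with a log2 fold change of 1.28 and an adjusted p of 0.0422 (limma), from a mean of 3.18 FPKM in DMSO and 4.40 in 4OHT to 9.16 in E2. It too failed the threshold in all 9 fits that left out 1 sample, with an adjusted p of 0.0698 to 0.163. With the block *Fos*, *Esr1* and *Jun* passed, with *Esr1* at 0.45 and *Jun*, the AP-1 partner of *Fos*, at 0.17. *Fos* and *Esr1* also passed as higher than in 4OHT, with 0.91 and 0.59. Of all genes tested, 10.4% and 8.63% passed as higher in E2 in these comparisons with the block. Without the block 0.494% passed as higher in E2 than in DMSO. The Sp factor genes *Sp1* and *Sp3* had -0.021 and 0.067 with E2, and *Nfya* and *Nfyc*, which encode subunits of the CCAAT-binding factor, had 0.017 and -0.06. The remaining subunit gene, *Nfyb*, was listed at 0 in 3 samples, and its value of 3.12 rests on them.

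**Figure D5:**
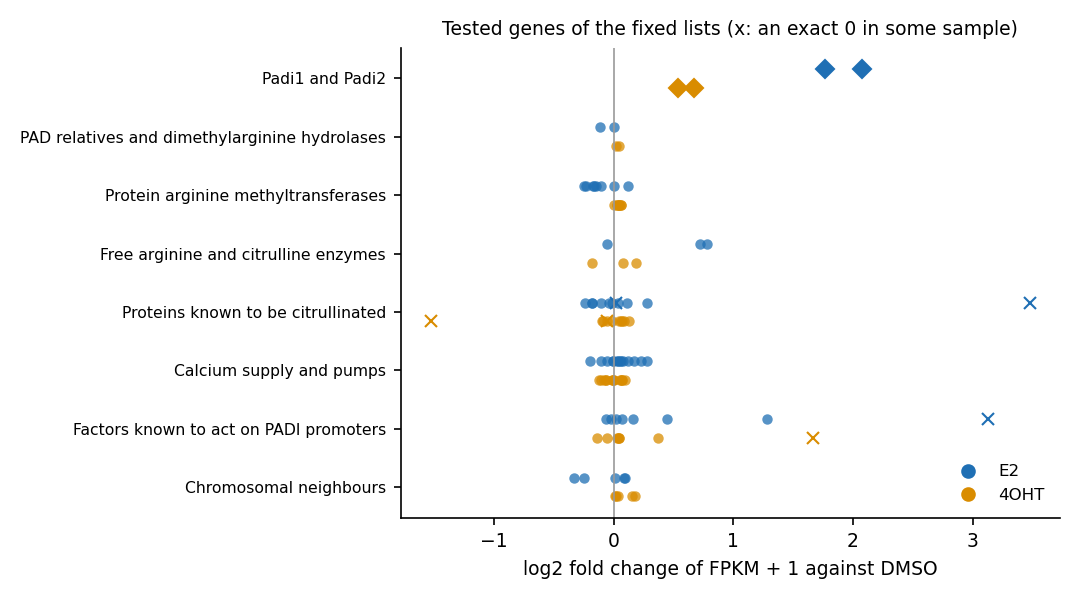
Log2 fold change of FPKM + 1 against DMSO with E2 (blue) and 4OHT (orange) for the tested genes of each list, with crosses for genes listed at 0 in some sample and diamonds for *Padi1* and *Padi2*. The *Padi1* and *Padi2* diamonds lie at 2.07 and 1.76 with E2 and at 0.54 and 0.68 with 4OHT. Apart from crosses, the nearest list gene is *Fos* at 1.28 with E2.

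Marker genes were checked for the labelled cell type. *Pax8*, known from secretory oviduct cells, had 105 to 149.6 FPKM and the keratin genes *Krt7*, *Krt8* and *Krt18* had at least 222 in every sample. *Epcam* and *Cdh1*, which also define epithelium, were at most 0.138 and 0.422, so they were essentially absent. *Ovgp1*, oviductin, had 1.44 to 2.61. The summed secretory markers ran from 1260 to 1487 in DMSO and 4OHT and from 2154 to 2319 in E2. This sum is carried by the keratins, with a mean from DMSO to E2 of 309.6 to 816 for *Krt7*, which is 1 of the 56 genes higher in E2, 496 to 710.4 for *Krt18* and 406 to 548 for *Krt8*. *Pax8* stood at 119 and 133, and *Ovgp1* went the other way, with 2.24 and 1.65. *Foxj1*, known from ciliated cells, had 8.95 to 15.9 and *Ccdc39* 1.00 to 1.71, while *Tekt1* was at most 0.188. The summed ciliated markers were 14.9 to 17.7 in DMSO, 15.4 to 17.1 in 4OHT and 10.2 to 14.2 in E2, so the E2 samples lay below the others, with a *Foxj1* mean of 14.9 in DMSO and 11.2 in E2. The part of these markers in the deiminase values was not tested.

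Of 6 markers with a row for myeloid cells, which express *Padi2* and *Padi4*, 3 stayed under 1 FPKM in every sample and 3 reached it. *Ptprc*, *Itgam* and *S100a9* were at most 0.0271, 0.113 and 0 FPKM, and *Padi4* itself was at most 0.0598. *Cd68* had 3.01 to 4.01, *Csf1r* 3.23 to 5.94 and *S100a8* 0.335 to 1.48, with its highest mean in 4OHT. The summed list was 8.51 to 10.9 in DMSO, 7.68 to 9.34 in 4OHT and 7.58 to 10.03 in E2, with overlapping ranges. This sum is carried mostly by *Cd68* and *Csf1r*. The myeloid part in the deiminase values was not tested. The stromal sum was 3.68 to 7.82 in DMSO, 5.24 to 8.53 in 4OHT and 10.7 to 23.2 in E2, so it was higher in the E2 samples. This came from *Dcn* alone, with a mean of 2.31 in DMSO, 3.04 in 4OHT and 13.0 in E2, while *Col1a1* had 3.83, 3.42 and 3.30 and *Pdgfra* and *Pdgfrb* were at most 0.111 and 0.0523. The stromal part in the deiminase values was not tested. The endothelial markers *Pecam1* and *Cdh5* were at most 0.0783 and 0.10 FPKM. In bulk samples, fewer expressing cells and less RNA per cell cannot be told apart.

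The samples were alike in the spread of their FPKM values. FPKM is corrected for library size, so these measures do not show sequencing depth. Between 11037 and 11175 genes had an FPKM of at least 1 per sample. Reads per sample are not part of the deposited FPKM and were not used here, so no counting error is given. Scaling each sample to a common upper quartile moved no sample by more than 0.056 on the log2 scale.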

How the data were processed

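The deposited values are FPKM for 23332 gene rows in each of the 9 samples. The authors prepared directional single-end libraries with reads of 50 bases, and the submitters' processing notes name TopHat2 2.0.8b, Cuffdiff 2.1.1 and mm10. Whether the deposited FPKM were further scaled between libraries, and how reads shared by related genes were split, is not given in the sources used here. The deposited tables hold no reads per sample. Read totals that the study lists elsewhere were not used here, so no counting interval is given.

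Conditions and replicate numbers were taken from the labels. Gene rows that reached 1 FPKM in 3 or more samples (11339) were fitted on log2(FPKM + 1) in all 9 samples with limma 3.58.1 in R 4.3.3, with a trend, 1 coefficient per condition and Benjamini-Hochberg adjustment within each comparison. The threshold was an adjusted p under 0.05, two-sided. The study's own test used cuffdiff on reads, for which this fit stands in. Fold changes on this scale understate those of genes near 1 FPKM. An exact permutation of 3 against 3 samples cannot go below a p of 0.1 and was not run.

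Same-numbered samples deviated together from their condition means, with correlations of 0.0528 to 0.293 over all genes tested (above 0.1 in 5 of 9 pairs) and 0.523 to 0.828 over the 11094 without an exact 0 (9 of 9 pairs). On the latter, the replicate number was taken as pairing the samples, and a fit with it as a block is given beside the first.

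The members and the lists were chosen with earlier results of these data known, so none of them is independent evidence. Genes were named by this rule: the 4 deiminases, list genes past the threshold in any comparison and the 2 most abundant others of each list, *Padi6* and 3 neighbours on each side, the 8 genes most correlated with *Padi1* and *Padi2*, the 5 genes higher in E2 with the largest 4OHT value, estrogen response genes and cell type markers. Genes called only with the block and the antisense genes were added after their values were seen. Alternatives were the block, a pseudocount of 0.1, no filter, upper-quartile scaling, only the 6 samples compared, an adjusted p under 0.01 and leaving out samples. Positions, strands, exons and transcripts came from RefSeq (GRCm38.p6) and GENCODE for the same assembly. The RefSeq promoter table matched 4 of 4 members. Proteins were not used here. The fit was checked on simulated data. Sequences were aligned in Python 3.11.15 with biopython 1.88.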

Additional observations from a re-analysis of the deposited data

How the results depend on the processing

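The log2 fold changes of *Padi1* and *Padi2* kept their direction in all 3 comparisons under every alternative run, 90 values in all, of which 86 moved by less than the spread between samples. The replicate block, the fit without a filter and the fit on 6 samples leave these estimates as they are by construction. So does leaving out 1 sample of the condition not compared. Values fixed in this way are counted among the 90 and the 86 and say nothing about robustness. The direction was also part of what chose these genes, so nothing is read from its being kept. For *Padi2*, a pseudocount of 0.1 gave 2.24 with E2 and 0.94 with 4OHT, and the ratio of mean FPKM with nothing added gave 2.30 and 1.01, since less is added to a low value. For *Padi1* with 4OHT, leaving out replicate 1 in 4OHT gave 0.26.

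Counts of genes past the threshold depended strongly on the setting. In E2 versus DMSO, 58 genes passed, against 1702 with the replicate block, 32 without a filter, 36 with upper-quartile scaling, 8 with only the 6 samples compared and 6 at an adjusted p under 0.01. Leaving out samples gave 6 to 125 genes, with 125 when replicate 1 was left out of all conditions, a setting chosen after seeing the data. In E2 versus 4OHT, 18 passed, against 1840 with the block, 10 with a pseudocount of 0.1, 9 without a filter, 7 with 6 samples and 0 at an adjusted p under 0.01, and 0 to 72 with samples left out. In 4OHT versus DMSO, 0 passed, against 3 with 6 samples and 0 to 7 with samples left out. Of the list genes and neighbours, 2 passed in E2 versus DMSO, against 14 with the block, 1 with upper-quartile scaling, and 0 without a filter, with 6 samples, at an adjusted p under 0.01 or with samples left out. In E2 versus 4OHT 0 passed, against 13 with the block and 0 to 1 with samples left out. The cause of these changes was not tested. Of the 8 genes most like *Padi1*, 2 were among the top 8 by Spearman correlation and 2 after the block means were subtracted, and for *Padi2* the numbers were 6 and 2. How far depth limits *Padi3* and *Padi4*, far below 1 FPKM in every sample, was not tested.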
